A study of Mus musculus with 12 samples.

Results

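The 10 genes described here encode feedback regulators of MAP kinase signalling, of short-lived messenger RNA and of the stress response. They are the dual-specificity phosphatases *Dusp1*, *Dusp2* and *Dusp6*, the AU-rich element binding proteins *Zfp36*, *Zfp36l1* and *Zfp36l2*, the decay factors *Btg2* and *Zc3h12a*, and the stress feedback genes *Gadd45b* and *Ppp1r15a*. They were chosen by name, and 10 of the 10 were found among the 13232 genes of the deposited expression table. The cells were bone marrow-derived macrophages, which are grown from whole marrow with the growth factor M-CSF (20 ng/ml), from WT C57B6/J mice. Macrophages of mice on a normal-fat diet (ND, 3 libraries), were compared with those of mice on a high-fat diet (HFD, 3 libraries). All 6 cultures had been moved to serum-free macrophage medium with M-CSF on day 4 and kept at 1% O2 for 1 h on day 7. The labels list 12 samples, and the 6 normal-oxygen samples were not analysed here, so nothing below measures a response to hypoxia. The labels do not give the age or sex of the mice, the length of feeding or whether each library came from its own mouse. All p-values therefore measure only the spread between these libraries, which may be technical.

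MAP kinase phosphatases remove phosphate from both the threonine and the tyrosine of the activation loop of MAP kinases, and many of them are themselves transcribed in response to the kinases they switch off. DUSP1 is a nuclear phosphatase of p38, JNK and ERK that limits cytokine production in macrophages, DUSP2 is a nuclear phosphatase best known in leukocytes, and DUSP6 is a cytoplasmic phosphatase selective for ERK. ZFP36 (tristetraprolin), ZFP36L1 and ZFP36L2 are CCCH zinc finger proteins that bind UAUUUAU in the 3′ untranslated region (3′ UTR) of cytokine and early response transcripts and bring in the CCR4-NOT deadenylase. ZC3H12A (regnase-1) is an endonuclease that cuts stem-loops in the transcripts of cytokines, and BTG2 joins deadenylases to poly(A)-binding protein. GADD45B binds kinases that act upstream of JNK and p38, and PPP1R15A (GADD34) brings protein phosphatase 1 to eIF2α, which restores translation after stress.

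The binding sequence of the ZFP36 family occurs in the annotated 3′ UTR of most of these transcripts, including those of the family itself, and 1 site per gene is shown because the letters that the ZFP36 proteins bind are carried by 7 of the 10. TATTTAT, the DNA form of the heptamer, was searched on the transcript strand in the GENCODE M21 annotation (GRCm38). It was found 3 times each in *Dusp1*, *Zfp36*, *Zfp36l1* and *Zfp36l2*, 4 overlapping times in *Ppp1r15a* and 1 time each in *Dusp2* and *Btg2*. It was found 0 times in *Dusp6*, *Zc3h12a* and *Gadd45b*. Of 10520 table genes with an annotated 3′ UTR, 28.3% held at least 1 copy and 3.57% held 3 or more. The sites follow, with the heptamers in capitals, read 5′ to 3′ on the transcript strand.
Dusp1: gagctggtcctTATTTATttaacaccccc
Dusp2: acagcactttaTATTTATatagaacattg
Zfp36: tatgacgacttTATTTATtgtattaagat
Zfp36l1: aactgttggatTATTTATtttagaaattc
Zfp36l2: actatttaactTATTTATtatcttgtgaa
Btg2: aaatgaagagcTATTTATacatgtttttt
Ppp1r15a: cctatTATTTATTTATTTATTTATttgaa
In GRCm38 the capitals lie at chr17:26506170-26506176 (minus strand) for *Dusp1*, starting at base 104 after the stop codon. They lie at chr2:127338315-127338321 (plus strand) for *Dusp2* and at chr7:28376962-28376968 (minus strand) for *Zfp36*. They lie at chr12:80108178-80108184 (minus strand) for *Zfp36l1*, at chr17:84184925-84184931 (minus strand) for *Zfp36l2* and at chr1:134077260-134077266 (minus strand) for *Btg2*. For *Ppp1r15a* they lie at chr7:45522956-45522974 (minus strand), in a 3′ UTR of 71 bases. The 3 copies in *Zfp36* begin at bases 575, 590 and 615 after its stop codon, within a UTR of 774 bases.

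The promoters were searched on both strands in RefSeq windows from 250 bases before to 50 bases after the start site (GRCm38.p6), which matched 9 of the 10 genes. The cAMP response element TGACGTCA was in the windows of *Dusp1*, *Btg2* and *Ppp1r15a*, against 3.68% of the 9021 table genes with a window and 1.79% of all 32851 windows. A CArG box, the site read by serum response factor, was in that of *Zfp36*, against 1.44% of table genes and 1.63% of all windows. The core of the hypoxia response element, ACGTG or GCGTG, was in the windows of 8 of the 9, all but *Dusp6*, against 68.0% of table genes and 43.8% of all windows. AP-1 sites (TGACTCA or TGAGTCA), which 4.4% of table genes hold, and NF-κB sites, which 6.07% hold, matched 0 of the 9. The stretches are shown because *Dusp1* and *Btg2*, whose HFD libraries all lay above the ND libraries, and *Ppp1r15a*, whose libraries overlapped, carry the same 8 letters. Each line gives 30 bases upstream of the start site on the gene's strand, with the element in capitals.
Dusp1: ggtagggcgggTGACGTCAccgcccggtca
Btg2: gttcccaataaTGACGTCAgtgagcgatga
Ppp1r15a: gagaccccgcctctccggTGACGTCAgcac
Zfp36: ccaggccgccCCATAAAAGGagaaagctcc
These 4 stretches, all on the minus strand, lie at chr17:26508597-26508626, chr1:134079303-134079332, chr7:45526269-45526298 and chr7:28379267-28379296. The elements begin at bases -143, -166, -12 and -58 from the start site. A match is a description of the letters and was not tested as a binding site.

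Summed over the genes of the table, libraries held about 19046400 to 24491500 estimated reads. The value of 1 read on the deposited scale was estimated at 0.908 to 1.18, so a normalized value is close to a read number. ND replicate 3 was the shallowest library by this sum and stood apart from its group. On the first principal component of 10794 genes (43.3% of the variance) it scored 3.43, against -14.0 and -13.5 for ND replicates 1 and 2. HFD replicates 1 to 3 scored 1.33, 11.3 and 11.4, so HFD replicate 1 also lay apart from its group. The difference of each of the 10 genes is given with and without ND replicate 3. Macrophage markers (8 of 8 in the table, *Adgre1*, *Csf1r* and *Lyz2* among them) summed to 345310 to 395570 in ND and 342870 to 402480 in HFD, most of it *Lyz2*. Of these markers *Cd14* was lower (-0.29, limma adjusted p 0.281) and *Adgre1* higher in HFD (0.16, limma adjusted p 0.520) without overlap. Neutrophil markers (7 of 10) summed to 1776 to 2592 in ND and 2367 to 3750 in HFD, with *Elane*, *Mpo* and *Camp* not in the table. All 7 were higher in HFD (median log2 difference 0.38), and the diets did not overlap for *Mmp8* (0.90, limma adjusted p 0.113) and *Mmp9* (63.9 to 175 in ND and 234 to 320 in HFD, limma adjusted p 0.270). Without ND replicate 3 the median of these 7 was 0.17, and both *Mmp8* and *Mmp9* passed the adjusted threshold. *Itgax*, the 1 dendritic marker of 4 in the table, ran from 1139 to 2131 in ND and from 2072 to 3071 in HFD (log2 difference 0.90, limma adjusted p 0.270), and it passed without ND replicate 3 (1.19). The 5 proliferation markers summed to 8715 to 9628 in ND and 7394 to 10475 in HFD, and 5 of 5 were lower in HFD. *Birc5* (-0.28, no overlap) and *Ccnb1* (-0.31) had an unadjusted p under 0.05. Without ND replicate 3 *Ccnb1* lost it at a similar difference (-0.30), *Top2a* was at -0.0070 and *Cdk1* turned positive (0.022). *Birc5* and *Mki67* then stayed lower (-0.24 and -0.17). The part of these other cells in the results below was not tested, and in bulk RNA fewer cells of a type and less RNA per cell cannot be told apart. Of the lists for B, T, stromal and mast cells 1, 1, 3 and 1 genes were in the table, their defining *Cd79a*, *Cd3e*, *Dcn* and *Cpa3* not among them, and of the erythroid list 0. Over these lists, *Ighm* ran from 1890 to 3061 in ND and 1876 to 2075 in HFD, *Cd4* from 202 to 356 and 98.1 to 230, the stromal sum from 177 to 549 and 51.8 to 337, and *Kit* from 117 to 226 and 72.4 to 104. The B cell marker *Ighm* was lower in HFD by a log2 difference of -0.40 (limma adjusted p 0.410), and it too passed with ND replicate 3 left out (-0.61).

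The diets were compared on log2(value + 1) with limma over all 13232 genes, and p-values were adjusted by Benjamini-Hochberg. With an adjusted p under 0.05 as the threshold, 0 genes passed (0%), and 0 of the 10 did. An unadjusted p under 0.05 was found for 1401 genes, which is 10.6% of the table (715 higher and 686 lower in HFD), and for 4 of the 10. These were *Dusp1* and *Zc3h12a*, higher in HFD, and *Zfp36* and *Gadd45b*, lower. Groups did not overlap, with HFD higher, for *Dusp1* and *Btg2*, against 7.44% of all genes. They did not overlap, with HFD lower, for *Zfp36* and *Gadd45b*, against 7.07%. The median absolute log2 difference was 0.20 for the 10 genes and 0.092 for all genes, while the median SD of log2 values within a diet was 0.158 and 0.124. As 5 genes were higher and 5 lower, their median difference was -0.018 (all genes -0.0034), and its sign turned with the library left out, from -0.060 without HFD replicate 1 and -0.057 without ND replicate 3 to 0.044 without HFD replicate 3.

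**Figure D1:**
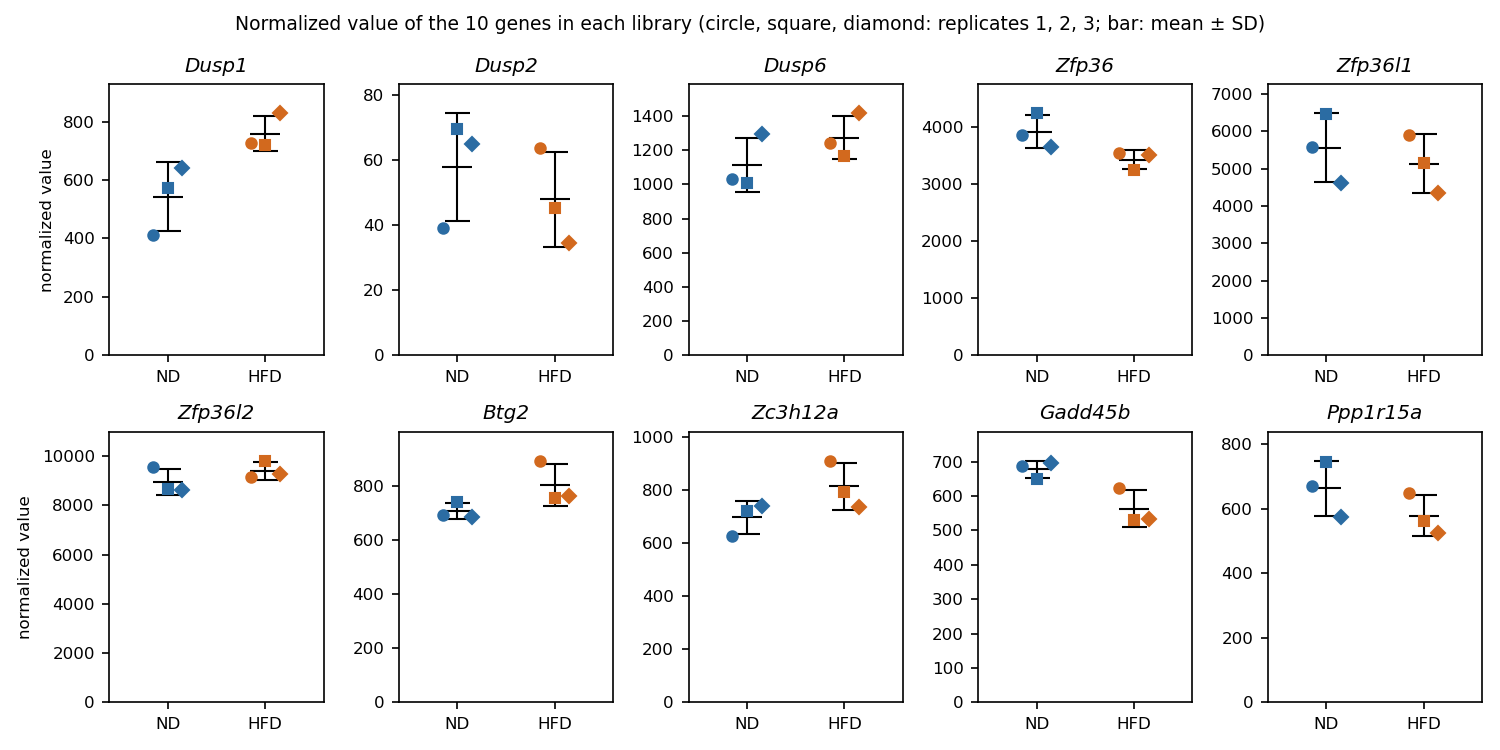
Normalized value (vertical axis, from 0) of each of the 10 genes in the 3 ND (blue) and 3 HFD (orange) libraries. Circles, squares and diamonds are replicates 1, 2 and 3, and black bars give the mean ± SD. HFD points lie wholly above ND points for *Dusp1* and *Btg2* and wholly below for *Zfp36* and *Gadd45b*.

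*Dusp1* was higher in HFD. Its normalized values were 412, 573 and 642 in the ND libraries and 728, 721 and 828 in the HFD libraries, here and below in the order of replicates 1 to 3. Every HFD library lay above every ND library, and ND replicate 1 was far below the rest. The means were 543 ± 118 and 759 ± 59.9 (SD, n = 3), a ratio of 1.42. On the log2(value + 1) scale HFD exceeded ND by 0.51 (SE 0.15, 95% interval 0.18 to 0.83), with a limma adjusted p of 0.295. By unadjusted p, 0.00634, it ranked 283 of 13232, and its absolute difference was larger than that of 96.6% of genes. ND replicate 3 lay 0.629 of the way from the other ND libraries to the HFD mean. Without ND replicate 3 the difference was 0.64 (limma adjusted p 0.0529), and without ND replicate 1 it was 0.32. With limma array weights, which give each library a weight by its scatter, it was 0.62 with a limma adjusted p of 0.0179. These weights were largest for HFD replicate 2 (3.09) and ND replicate 1 (1.91), and with them 1133 of all 13232 genes passed. Over 15 alternatives the limma adjusted p of *Dusp1* ran from 0.0179 to 0.879. The unadjusted p was under 0.05 in 15 of the 15. At 413 to 912 reads, counting alone gives an error of 3.31% to 4.92% of the value.

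*Dusp6* had values of 1032, 1010 and 1293 in ND and 1240, 1167 and 1415 in HFD. ND replicate 3 lay among the HFD libraries, so the groups overlapped. The log2 difference was 0.20 (SE 0.11, 95% interval -0.040 to 0.44), with a limma adjusted p of 0.561. Without ND replicate 3 the groups no longer overlapped and the difference was 0.31 (unadjusted p 0.00601, limma adjusted p 0.117, over all alternatives 0.117 to 0.965). Without HFD replicate 3 it was 0.12.

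*Dusp2* was the least abundant of the 10 genes, with values of 38.9, 69.4 and 65.0 in ND and 63.6, 45.4 and 34.5 in HFD. The diets overlapped widely, the lowest value being in HFD replicate 3 and the next in ND replicate 1. HFD less ND on the log2 scale was -0.27 (SE 0.29, 95% interval -0.92 to 0.38; limma adjusted p 0.793), and it ran from -0.52 without ND replicate 1 to -0.059 without HFD replicate 3, leaving out ND replicate 3 giving -0.16. With 38 to 71 reads per library, counting error was 11.9% to 16.2%.

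Among the phosphatases, *Dusp1* made up a larger share of the summed per-kilobase level of these 3 genes in HFD. The share was 34.5%, 41.6% and 39.1% in ND and 43.1%, 44.9% and 44.1% in HFD, with no overlap. That of *Dusp6* was 56.6% ± 4.7 in ND and 52.5% ± 1.0 in HFD, with overlap. The sum itself was 706 ± 113 (ND) and 867 ± 69.7 (HFD; SD, n = 3) and also overlapped. These shares were computed after the single values had been seen and were not tested.

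*Zfp36*, which encodes tristetraprolin, was lower in HFD by a small amount. The values were 3860, 4237 and 3656 in ND and 3545, 3238 and 3504 in HFD. Every HFD library was below every ND library, the nearest pair being ND replicate 3 and HFD replicate 1. The log2 difference was -0.19 (SE 0.072, 95% interval -0.35 to -0.030), with an unadjusted p of 0.0245 and a limma adjusted p of 0.396. Without ND replicate 3 it was -0.24 (limma adjusted p 0.130) and without ND replicate 2 it was -0.13. With array weights it was -0.24 (limma adjusted p 0.0343, over all alternatives 0.0343 to 0.932). The unadjusted p was under 0.05 in 12 of 15 alternatives, the others being limma without its trend, without ND replicate 2 and without HFD replicate 2.

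Both paralogs of *Zfp36* had intervals that include 0. *Zfp36l1* had values of 5577, 6466 and 4620 in ND and 5912, 5151 and 4346 in HFD, and in each diet replicate 3 was the lowest. Its log2 difference was -0.11 (SE 0.13, 95% interval -0.41 to 0.19; limma adjusted p 0.817), and it turned positive without ND replicate 2 (0.0058) or without HFD replicate 3 (0.0042), while leaving out ND replicate 3 gave -0.24. The spread between libraries of *Zfp36l1* was 11.7 times the counting error on the log2 scale, the most of the 10. Exons of its transcript overlap the antisense gene *Gm26669* over 1672 bases, and whether the authors' counting used strand is not given in the sources used here, so reads of the pair cannot be told apart. The same holds for 105 bases of *Zfp36l2* (*AC132455.1*) and 6 of *Ppp1r15a* (*Tulp2*).

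*Zfp36l2* was the steadiest of the 10 genes, with an SD of log2 values within a diet of 0.071. The values were 9548, 8644 and 8606 in ND and 9129, 9805 and 9258 in HFD, and ND replicate 1 lay among the HFD libraries. Its log2 difference was 0.074 (SE 0.067, 95% interval -0.075 to 0.22; limma adjusted p 0.741), and 0.048 without ND replicate 3. Quantile normalization gave 0.013, and leaving out ND replicate 1 or HFD replicate 2 gave 0.12 or 0.043. At 7288 to 10196 reads, counting error was 0.99% to 1.17%.

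Within a library, *Zfp36l2* less *Zfp36* on the log2 scale was 1.31, 1.03 and 1.24 in ND and 1.37, 1.6 and 1.40 in HFD, with no overlap. *Dusp1* less *Zfp36* was -3.23, -2.88 and -2.51 in ND and -2.28, -2.17 and -2.08 in HFD, so the diets stood apart by 0.70 on average. The pairs were chosen after the values were seen and have no test. Summed per kilobase, the ZFP36 family came to 5792 ± 441 (ND) and 5609 ± 255 (HFD; SD, n = 3), with overlap.

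*Zc3h12a*, the gene of regnase-1, had values of 626, 722 and 740 in ND and 909, 793 and 736 in HFD. HFD replicate 3 lay just below ND replicate 3, so the groups overlapped. HFD less ND on the log2 scale was 0.22 (SE 0.098, 95% interval 0.0019 to 0.44), with an unadjusted p of 0.0484 and a limma adjusted p of 0.466. It was 0.29 without HFD replicate 3, 0.27 without ND replicate 3 and 0.14 without HFD replicate 1, and the unadjusted p was under 0.05 in 8 of 15 alternatives.

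*Btg2* had values of 692, 739 and 685 in ND and 893, 755 and 761 in HFD. The groups did not overlap, but ND replicate 2 and HFD replicate 2 were close. The log2 difference was 0.18 (SE 0.084, 95% interval -0.0053 to 0.37; limma adjusted p 0.487), 0.16 without ND replicate 3 and 0.10 without HFD replicate 1. An unadjusted p under 0.05 was found in 2 of 15 alternatives.

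*Gadd45b* was lower in HFD, with values of 686, 649 and 697 in ND and 625, 530 and 534 in HFD. Every HFD library lay below every ND library, and HFD replicate 1 was the nearest to ND. The means were 678 ± 25.0 (ND) and 563 ± 53.5 (HFD; SD, n = 3). HFD less ND on the log2 scale was -0.27 (SE 0.085, 95% interval -0.46 to -0.081), with an unadjusted p of 0.0101 and a limma adjusted p of 0.319. Here ND replicate 3 lay on the ND side of its group, and without it the difference was -0.25 (limma adjusted p 0.222). With array weights it was -0.31 (limma adjusted p 0.0292, over all alternatives 0.0292 to 0.904). Like *Dusp1*, *Gadd45b* had an unadjusted p under 0.05 in 15 of 15 alternatives.

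*Btg2* and *Gadd45b* had similar normalized values in ND and different ones in HFD. On the log2 scale, *Btg2* less *Gadd45b* within a library was 0.013, 0.19 and -0.025 in ND and 0.51, 0.51 and 0.51 in HFD. This pair too was chosen after the values were seen and was not tested.

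*Ppp1r15a* had values of 672, 744 and 574 in ND and 650, 562 and 525 in HFD. ND replicate 3 lay among the HFD libraries. The log2 difference was -0.19 (SE 0.11, 95% interval -0.45 to 0.058; limma adjusted p 0.597). Without ND replicate 3 the groups no longer overlapped and the difference was -0.29 (unadjusted p 0.0203, limma adjusted p 0.20), and without ND replicate 2 it was -0.11. Its limma adjusted p lay between 0.0983 and 0.956 across the alternatives.

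Leaving out ND replicate 3 raised the count for all genes as well as for these. Without it 233 genes passed an adjusted p of 0.05, which is 1.76% of the table, and 0 of the 10 were among them. An unadjusted p under 0.05 was then found for 2309 genes (17.5%) and for 6 of the 10, *Dusp6* and *Ppp1r15a* joining the 4 above. For all 10 genes the 95% interval of the log2 difference with 6 libraries lay inside -1 to 1.

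**Figure D2:**
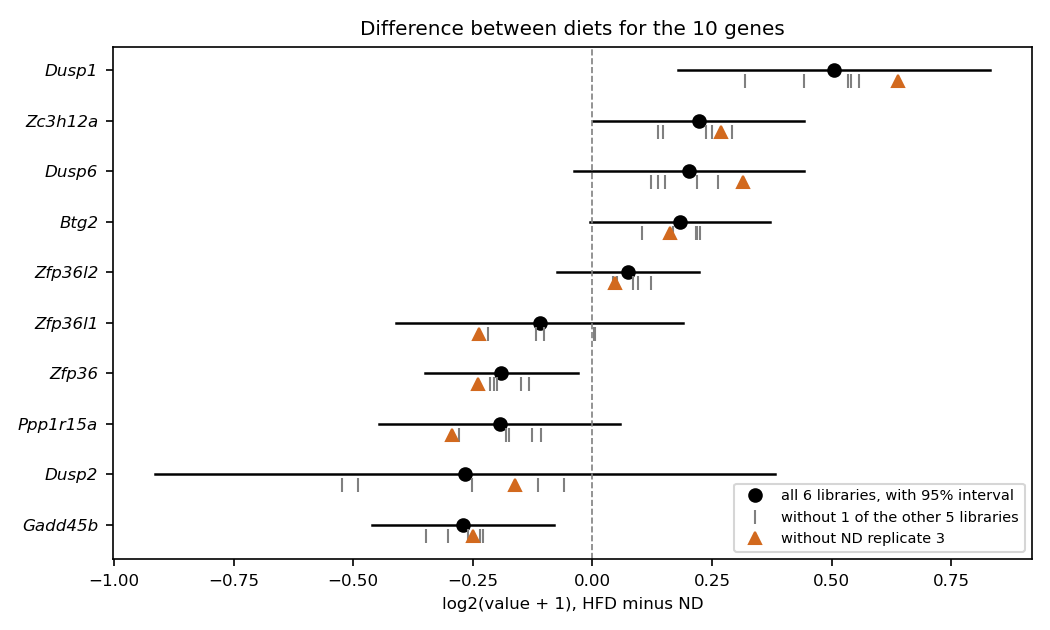
Difference between diets (HFD minus ND, log2(value + 1), horizontal axis) for the 10 genes. Black points and lines are limma estimates with 95% intervals from all 6 libraries, triangles are estimates without ND replicate 3, and grey ticks are those without 1 of the other libraries. The intervals of *Dusp1*, *Zc3h12a*, *Zfp36* and *Gadd45b* exclude 0, and ticks of *Zfp36l1* fall on both sides of it.

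Divided by transcript length, the ZFP36 family held the highest levels. Mean levels per kilobase of the annotated coding transcript were 2596 for *Zfp36l2*, 1788 for *Zfp36l1* and 1317 for *Zfp36*, then 483 for *Gadd45b*, 427 for *Dusp6* and 327 for *Dusp1*. *Btg2* (275), *Zc3h12a* (274) and *Ppp1r15a* (221) followed, and *Dusp2* was last at 32.7. The ranges over libraries of *Zfp36l2* (2438 to 2778) and *Zfp36l1* (1454 to 2163) did not touch, nor did those of *Zfp36* (1161 to 1519) and *Gadd45b* (413 to 543), or of *Ppp1r15a* (187 to 265) and *Dusp2* (21.3 to 42.9). All other neighbours in this order overlapped. The annotated transcript of *Zfp36* starts upstream of its RefSeq start, which lengthens it and lowers its level per kilobase. The order of *Zfp36* and *Zfp36l1* therefore depends on the start site taken.

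**Figure D3:**
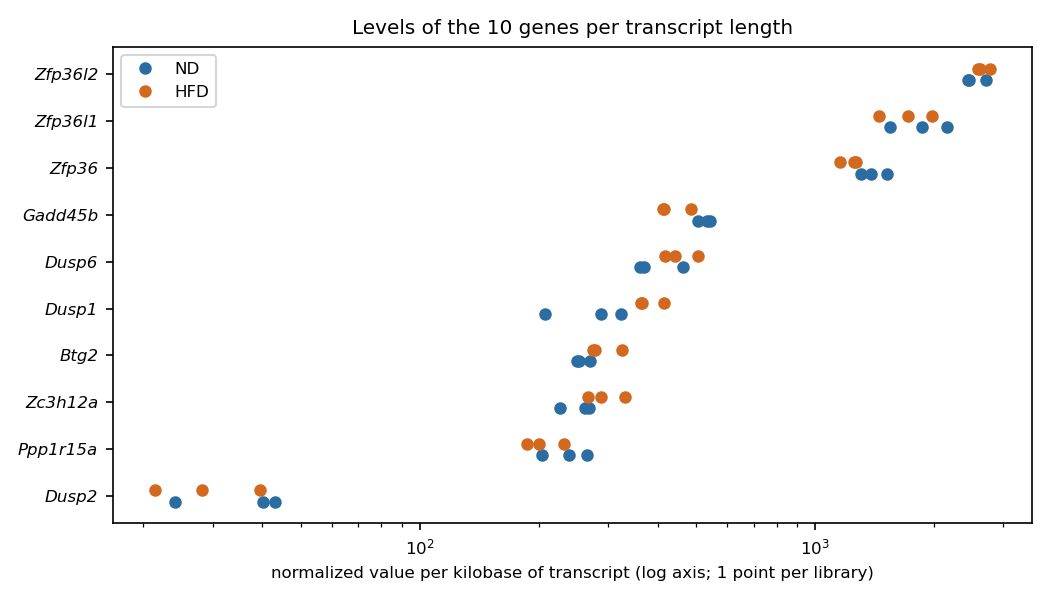
Normalized value per kilobase of annotated transcript (horizontal log axis) for the 10 genes, 1 point per library, ND in blue and HFD in orange. *Zfp36l2*, *Zfp36l1* and *Zfp36* lie above 1000 in every library and *Dusp2* below 50.

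All 10 genes are placed on GRCm38 by GENCODE M21. *Dusp1* spans chr17:26505590-26562128 in the annotation, though its coding transcript, read from the minus strand, starts at 26508519, and *Zfp36l2* lies on the same chromosome at chr17:84183931-84187947 (both minus strand). *Zfp36* (chr7:28376784-28380253) and *Ppp1r15a* (chr7:45522916-45526268) share another chromosome, both on the minus strand. *Dusp6* (chr10:99263231-99267489) and *Gadd45b* (chr10:80930073-80932204) are on a shared chromosome too, both on the plus strand. *Dusp2* is at chr2:127336159-127338376 (plus), *Btg2* at chr1:134075170-134079120 (minus), *Zfp36l1* at chr12:80107754-80113013 (minus) and *Zc3h12a* at chr4:125118423-125127840 (minus). Of stretches of 75 bases, the read length, 1.27% of the *Zfp36l1* transcript also occur in *Zfp36l1-ps* and 1.03% of that of *Zfp36* in *S100a7a*, and for the other 8 genes the share was 0%.

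The wider phosphatase family was looked at next. Over all genes 6470 were higher and 6762 lower, which is the setting for the list counts that follow. Of 10 typical MAP kinase phosphatases, *Dusp1*, *Dusp2* and *Dusp6* included, 9 were in the table (not *Dusp8*), 7 higher and 2 lower in HFD with a median log2 difference of 0.14. At an unadjusted p under 0.05 there were 3 higher and 1 lower. Besides *Dusp1*, *Dusp5*, a nuclear ERK phosphatase, averaged 187 ± 46.6 (ND) and 270 ± 25.2 (HFD; SD, n = 3), with no overlap (log2 difference 0.56, limma adjusted p 0.321). Leaving out 1 library moved it to between 0.34 (ND replicate 1) and 0.71 (ND replicate 2). *Dusp9* differed by 0.48 with overlap (limma adjusted p 0.464), at values of 46.9 to 79.0. *Dusp7*, a cytoplasmic ERK phosphatase, was lower by a small amount without overlap (-0.16, limma adjusted p 0.374). *Dusp4*, *Dusp10* and *Dusp16* had differences from 0.012 to 0.14 with overlap. Without ND replicate 3 the median of the list was 0.29, with 4 higher and 1 lower at an unadjusted p under 0.05.

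Of 15 atypical dual-specificity phosphatases 9 were in the table, 8 higher and 1 lower, with a median of 0.057 (0.12 without ND replicate 3). The 1 that was lower, *Dusp22*, a phosphatase of the JNK pathway, had values of 757, 737 and 657 in ND and 605, 558 and 506 in HFD. The diets did not overlap (log2 difference -0.37, limma adjusted p 0.260), and it was the 1 gene of the list with an unadjusted p under 0.05. With array weights its limma adjusted p was 0.0113, and over all alternatives it ran from 0.0113 to 0.879.

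For the genes of the kinases the median absolute log2 difference was 0.060, against 0.20 for the typical phosphatases and 0.092 for all genes. The lists were not matched for level or spread. Low genes with wide errors were *Dusp2*, *Dusp9* and *Dusp10* (SE 0.21 to 0.29) in the phosphatase list. In the longer kinase list they were *Map2k6* and *Mapk11* (SE 0.20 and 0.18). Of 22 MAP kinase cascade genes 19 were in the table, 11 higher and 8 lower (median 0.013). The exception was *Map2k6*, a kinase of p38, at 94.8, 79.2 and 73.2 in ND and 52.9, 45.4 and 69.9 in HFD (log2 difference -0.56, no overlap, limma adjusted p 0.378), the 1 gene of this list with an unadjusted p under 0.05 (1 higher and 2 lower without ND replicate 3). The ERK inhibitors of the Sprouty and Spred families (4 of 7 in the table) were higher in 4 of 4, from 0.0032 to 0.11, with a median of 0.074 (0.17 without ND replicate 3) and 0 at an unadjusted p under 0.05.

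The machinery that the decay factors call on was looked at by complex. CCR4-NOT, BTG/TOB and PAN deadenylation genes (17 of 18 in the table) were 8 higher and 9 lower, with a median of -0.0027 and 0 at an unadjusted p under 0.05. Other AU-rich element and stem-loop binding proteins (9 of 10) had a median of 0.029 and also 0, with *Elavl1*, which encodes the stabilising protein HuR, at 0.13. Decapping and 5′ decay genes (10 of 10) were lower in 8, with a median of -0.066, and 1, the scavenger decapping enzyme *Dcps*, had an unadjusted p under 0.05 (-0.31, limma adjusted p 0.431; -0.18 with HFD replicate 1 left out). RNA exosome genes (10 of 11) were higher in 9, with a median of 0.081 and 0 at an unadjusted p under 0.05. ND replicate 3 bore on these lists. Without it 3 deadenylation genes were lower at an unadjusted p under 0.05 (*Pan3* -0.19, *Cnot6l* -0.17 and *Cnot3* -0.20; list median -0.018). Likewise 2 exosome genes were higher (*Exosc4* 0.33 and *Exosc5* 0.34; list median 0.16), and the medians of the decapping and binding protein lists were -0.11 and 0.010, *Zc3h12c* (0.16) being the 1 binding protein gene with an unadjusted p under 0.05. In the decapping list *Dcps* (-0.29) was then no longer at that level and *Ddx6* (-0.15), a helicase of the decapping complex, was. None of these genes passed after adjustment (limma adjusted p 0.145 to 0.260, and 0.347 for *Dcps*).

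The relatives of *Gadd45b* had lower means in HFD with overlap. *Gadd45a* averaged 775 ± 106.5 (ND) and 712 ± 94.9 (HFD; SD, n = 3; log2 difference -0.12, limma adjusted p 0.766). That difference was -0.012 when ND replicate 2 was left out, -0.031 when HFD replicate 3 was, -0.19 when ND replicate 3 was and -0.22 when HFD replicate 2 was, and array weights gave -0.0034. *Gadd45g* had values of 62.9, 70.4 and 131 in ND and 48.9, 74.3 and 86.3 in HFD, and its difference of -0.29 became 0.031 without ND replicate 3. Genes that control eIF2α phosphorylation, the step that PPP1R15A reverses (11 of 11), were 4 higher and 7 lower with a median of -0.028. Of these, 0 had an unadjusted p under 0.05, but without ND replicate 3 *Atf4* (0.28), *Eif2s1* (0.22) and *Ppp1r15b* (0.16) were higher and *Eif2ak2* (-0.24) lower at that level. *Atf4*, translated when eIF2α is phosphorylated, was at 0.16, and *Ppp1r15b*, the constitutive relative of *Ppp1r15a*, averaged 3228 ± 342 (ND) and 3406 ± 130 (HFD; SD, n = 3).

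Inflammatory transcripts with AU-rich elements, the textbook targets of the ZFP36 family, split. Of 14 listed 9 were in the table, 5 higher and 4 lower with a median of 0.0082, which turned to -0.13 without ND replicate 3, and *Il6*, *Il23a*, *Cxcl1*, *Csf2* and *Ptgs2* were not in it. The chemokine *Ccl4* was 426, 375 and 363 in ND and 233, 185 and 269 in HFD (log2 difference -0.77, limma adjusted p 0.145). *Ccl3* was 1052, 971 and 828 in ND and 612, 597 and 737 in HFD (-0.55, limma adjusted p 0.184). All 3 HFD values of each were below all 3 ND values, and without ND replicate 3 both passed the threshold (limma adjusted p 0.0369 for *Ccl4* and 0.0206 for *Ccl3*). Across the alternatives it lay between 0.00461 and 0.750 for *Ccl4* and between 0.00461 and 0.860 for *Ccl3*. *Tnf*, the best known target of tristetraprolin, averaged 462 ± 42.3 (ND) and 495 ± 98.3 (HFD; SD, n = 3) with overlap.

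Over all genes, copies of the heptamer were set against the difference between diets. The 376 genes with 3 or more copies had a median log2 difference of 0.021, against 0.0030 for the 7540 genes with 0 copies. At an unadjusted p under 0.05, 6.91% of the former were higher and 3.99% lower, against 5.93% and 4.55%. In all, 58.0% of the former and 51.0% of the latter were higher in HFD. The 3′ UTRs of the former are longer, at a median of 3286 bases against 747. Of the 7 genes shown above with a heptamer, *Dusp1*, *Zfp36l2* and *Btg2* were higher and *Dusp2*, *Zfp36*, *Zfp36l1* and *Ppp1r15a* lower in HFD. For the cAMP response element, the 332 table genes with one in their window had a median log2 difference of 0.012, with 6.93% higher and 2.71% lower at an unadjusted p under 0.05, against 0.0023, 5.64% and 4.47% for the 9021 genes with a window.

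Early response genes and targets of the regulators of these genes were listed too. Among 15 other immediate early genes 8 were higher and 7 lower (median 0.040), with 2 higher and 3 lower at an unadjusted p under 0.05 (4 and 4 without ND replicate 3). *Fos* (log2 difference 0.42, limma adjusted p 0.260) and *Egr2* (0.66, limma adjusted p 0.284) were higher, while *Egr1* (-0.40, limma adjusted p 0.217) and *Jun* (-0.21, limma adjusted p 0.284) were lower. Glucocorticoid targets were listed because *Dusp1* is a known one. Of 8, 4 were higher and 4 lower, with *Klf9* (0.48, limma adjusted p 0.217) and *Sgk1* (0.38, limma adjusted p 0.220) above and *Tsc22d3* (-0.40, limma adjusted p 0.353) and *Mt2* (-0.32, limma adjusted p 0.439) below. *Tsc22d3* was at -0.26 with HFD replicate 3 left out and -0.55 with HFD replicate 1 left out. *Egr1*, *Egr2* and *Klf9* passed without ND replicate 3, at limma adjusted p-values of 0.0417, 0.0127 and 0.0163. Over all alternatives these ran up to 0.862, 0.882 and 0.860. Of 8 p53 targets, listed because *Btg2* is one, 4 were higher and 4 lower with 0 at an unadjusted p under 0.05, and 1 each way without ND replicate 3. The median of the 8 glucocorticoid targets was -0.039 (-0.064 without ND replicate 3).

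**Figure D4:**
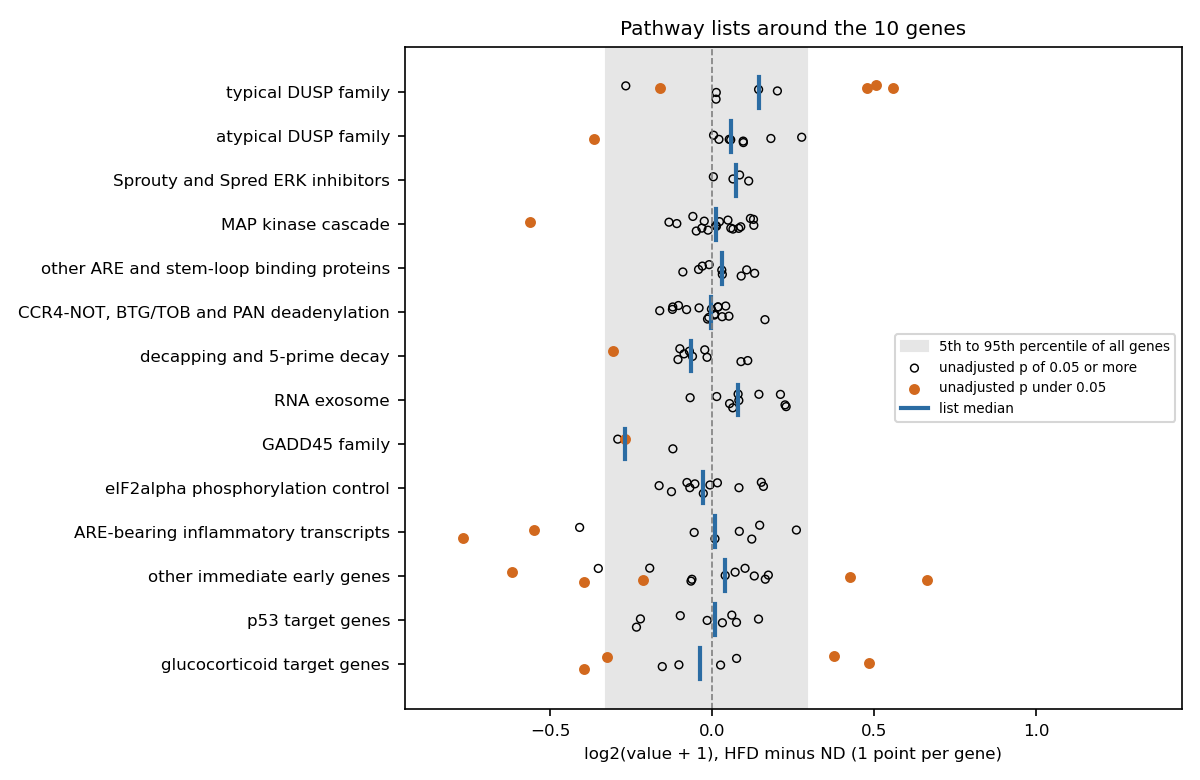
Difference between diets (HFD minus ND, log2(value + 1), horizontal axis) for each gene of 14 pathway lists, 1 point per gene. Filled points have an unadjusted limma p under 0.05, bars are list medians, and the grey band spans the middle of all genes from -0.327 to 0.293 (5th to 95th percentile). Points outside the band lie on both sides in the immediate early and glucocorticoid lists.

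Of 10793 other genes with a mean of at least 100, those whose centred log2 values lay nearest to *Dusp1* over the 6 libraries were *Gstp1* (Euclidean distance 0.214), *Fos* (0.231) and *Ifi27* (0.237). *Fos* values were 1640, 2188 and 2136 in ND and 2623, 2553 and 2764 in HFD, low in ND replicate 1 as *Dusp1* is. *Dusp1* less *Fos* on the log2 scale ran from -1.99 to -1.73 in ND and from -1.85 to -1.74 in HFD, with overlap. Nearest to *Zfp36* were *Uty* (0.0644), *4632404H12Rik* (0.0715) and *Ifih1* (0.0819). *Ifih1*, a sensor of viral RNA, had values of 1048, 1087 and 1000 in ND and 959, 880 and 965 in HFD. Nearness over 6 libraries is a description with no test.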

How the data were processed

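RNA was measured by stranded total RNA sequencing after removal of ribosomal RNA, with single reads of 75 bases, per the labels' protocols. The authors deposited 1 table of a signal per gene, which from its values holds estimated gene counts divided by a factor per library. Per library, 57.0% to 58.4% of the values from 5 to 1000 fell on whole multiples of a step (tolerance 0.02 of a read), so whole reads were not recovered and the limma form of the planned test was used. The submitters' processing notes name STAR, Partek and mm10, with no version or role. NC in a column name was read as the normal diet, and 0 columns stayed unmatched. No pair of libraries agreed within sampling noise (chi-square per gene 8.85 to 40.7). The lowest value was for ND replicate 3 with HFD replicate 1, and pairs of 1 diet gave 13.2 or more.

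Values were tested as log2(value + 1), with no filter, by limma 3.58.1 in R 4.3.3 (mean-variance trend, two-sided) with Benjamini-Hochberg adjustment over 13232 genes. The scale understates changes of low genes. With 3 libraries a side an exact permutation test cannot go below 0.1. The fit was checked on simulated data. Members, gene lists and tests were chosen with earlier results of these data known. Named were the 10 genes, up to 4 genes per list by smallest p, and the 3 nearest to *Dusp1* and *Zfp36*, and others named, such as *Tnf*, *Ppp1r15b*, *Dusp4*, *Dusp10* and *Dusp16*, were chosen after their values were seen. GENCODE M21 matched 12964 symbols (98.0%). Per gene, the coding transcript with the longest coding sequence was used, those in the CCDS set first. Alternatives covered pseudocounts, filters, scalings, array weights, a replicate block and each library left out.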

Additional observations from a re-analysis of the deposited data

How the results depend on the processing

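Over the 10 genes the alternatives gave 144 values with the same direction and side of the threshold, 3 that came to pass it and 2 that reversed. Array weights gave the 3: *Dusp1* (0.62), *Zfp36* (-0.24) and *Gadd45b* (-0.31). The weights were 3.09 for HFD replicate 2, 1.91 for ND replicate 1 and 0.441 to 0.891 for the other libraries. *Zfp36l1* reversed without ND replicate 2 (0.0058) and HFD replicate 3 (0.0042), within -0.24 to 0.0058 over libraries left out. *Gadd45g* ran from -0.49 to 0.031, reversing without ND replicate 3. For the other list genes with an unadjusted p under 0.05, *Egr3* included, run through the same alternatives after seeing the data, 19 values came to pass. Genes passing an adjusted p numbered 1133 with array weights and 0 to 233 without 1 library: 233 with ND replicate 3 left out, 2 with HFD replicate 1 and 1 with ND replicate 2. At an unadjusted p they numbered 3646 with array weights and 700 to 2309 without 1 library, 700 without ND replicate 1 and 726 without HFD replicate 2. Members with an unadjusted p under 0.05 numbered 2 in limma without the trend, where 1257 of all genes had one. Without 1 library they numbered from 2 (ND replicate 2 left out, 1060 of all genes) to 6 (ND replicate 3 left out, 2309 of all genes). The cause was not tested. Scaling to the column total gave 628 higher and 762 lower at an unadjusted p, against 715 and 686. A replicate block gave 31 genes, 0 of them members. Same-numbered libraries' deviations had correlations of 0.0891, -0.112 and 0.0273 and are not taken as paired. The members' median ran from -0.060 to 0.044 without 1 library, and was 0.074 at a mean of at least 100, where *Dusp2* has no value. Counting error was largest for *Dusp2*, at 38 to 71 reads. The spread between libraries was nearest to counting error for *Gadd45b* (1.75 times), then *Btg2* (1.99) and *Dusp2* (2.15).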
